A study of Homo sapiens with 9 samples.

Results

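The genes described here are 55 genes of the mitotic spindle and of the passage from the G2 phase into mitosis. They were chosen by symbol from the 56541 genes of the deposited count table, and all 55 were found once each. The choice names no measured value, but it was made with earlier results of these data in view. The cells were MOLM-13, an established acute myeloid leukaemia line that the labels trace to peripheral blood. Every culture received 200 ng/µL doxycycline for 4 days. One group carried a control hairpin (shCONTROL) and one a hairpin against BCLAF1 (shBCLAF1), and total RNA of both, from 2000000 cells each, was sequenced after removal of ribosomal RNA. The third group (RIP) was RNA recovered with BCLAF1 by RNA immunoprecipitation from 15000000 shCONTROL cells. Each group had 3 libraries. The labels do not say whether replicates were separate cultures, how many hairpin sequences were used or whether the lines were clones, so the p-values measure the spread between these libraries, which may be technical. No mock precipitation is named, and the RIP was therefore set against shCONTROL RNA-seq.

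Mitosis is driven by the kinase CDK1 with its cyclins, helped by the Polo-like and Aurora kinases. Kinesins and microtubule-binding proteins build the spindle, kinetochores tie it to the chromosomes, condensins compact the chromosomes, and a checkpoint holds back separation until every chromosome is attached. The transcription factors FOXM1 and MYBL2 switch many of these genes on late in the cell cycle, commonly through a promoter element called CHR (cell cycle genes homology region) that is often found beside CCAAT boxes. BCLAF1 is an RNA-binding nuclear protein linked to splicing and transcription.

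What the promoters of these genes share was read from RefSeq windows (GRCh38.p14) that run from 250 bases before to 50 bases after an annotated start, 1 per gene. Of the 55 genes, 47 had a window, and AURKA, BIRC5, BUB3, FOXM1, RACGAP1, TPX2, TTK and UBE2C had none. In 44 of the 47 the start was the outer end of the RefSeq gene span, and in AURKB, CKAP2 and SMC2 it lay 350, 510 and 6046 bases inside it. The CHR was searched as TTTGAA or TTCGAA and the CCAAT box as CCAAT, each on both strands, with overlapping matches kept. The CHR letters were present in 36 of the 47 windows (76.6%, Wilson 95% interval 62.8% to 86.4%), against 16.6% of all 27305 windows. In the bases before the start alone the shares were 57.4% and 14.6%. Among the 44 windows at the outer end, 35 held the letters (79.5%). The CCAAT letters were present in 72.3% of the members' windows and in 35.7% of all windows. Both stood together in 28 members, or 59.6%, against 6.58% of all windows. An E2F site, searched as TTTCCCGC or TTTGGCGC, was found in 3 members (6.38%, against 2.31% of all windows). A match is a description of the letters and not a site shown to be bound.

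Windows of the last 80 bases before the start are printed 5′ to 3′ on the gene's strand, to show genes that moved in opposite directions after knock-down beside the same element. Capitals mark the CHR and CCAAT letters on either strand (TTCAAA is the CHR and ATTGG the CCAAT box on the other strand). PRC1, ANLN and KIF4A were higher after knock-down.
PRC1 (chr15:90994536-90994615, minus strand): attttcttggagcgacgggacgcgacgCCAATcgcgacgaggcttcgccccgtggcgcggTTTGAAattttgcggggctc
ANLN (chr7:36389782-36389861, plus strand): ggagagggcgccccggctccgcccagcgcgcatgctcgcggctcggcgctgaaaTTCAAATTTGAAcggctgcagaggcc
KIF4A (chrX:70290024-70290103, plus strand): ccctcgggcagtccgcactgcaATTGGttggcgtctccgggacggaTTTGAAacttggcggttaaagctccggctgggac
NCAPG and BUB1B were lower after knock-down and hold the same element at a like distance from the start. The printed windows are examples. Among other genes that fell and hold the letters, HMMR has matches starting at -28 and -22. In NDC80, SPC25 and SMC2 a match spans the start. MAD2L1 and KIF20B hold matches only after it, SMC4 at -75 and TOP2A at -194 and -151. Of the other genes that rose, CENPA, KIF11 and KIF23 hold a match within 60 bases before the start. KIF14 holds the letters only after it and ECT2 at -115 and 35.
NCAPG (chr4:17810899-17810978, plus strand): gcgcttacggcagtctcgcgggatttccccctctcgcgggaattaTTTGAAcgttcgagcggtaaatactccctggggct
BUB1B (chr15:40160989-40161068, plus strand): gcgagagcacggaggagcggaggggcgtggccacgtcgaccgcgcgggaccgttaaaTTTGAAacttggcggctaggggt
PLK1 and CCNB2 did not pass the test after knock-down, and each holds a CHR with a CCAAT box upstream of it.
PLK1 (chr16:23678809-23678888, plus strand): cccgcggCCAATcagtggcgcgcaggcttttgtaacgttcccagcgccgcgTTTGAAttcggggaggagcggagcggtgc
CCNB2 (chr15:59105066-59105145, plus strand): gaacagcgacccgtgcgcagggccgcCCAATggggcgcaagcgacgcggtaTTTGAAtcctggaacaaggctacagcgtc
KIF20A, the gene highest in the RIP, and CCNB1, the main mitotic cyclin, show windows without TTTGAA or TTCGAA. Both windows hold tttaaa, and forms of the CHR other than the letters searched were not looked for.
KIF20A (chr5:138179032-138179111, plus strand): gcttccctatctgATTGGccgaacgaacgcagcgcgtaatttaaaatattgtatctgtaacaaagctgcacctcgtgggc
CCNB1 (chr5:69167070-69167149, plus strand): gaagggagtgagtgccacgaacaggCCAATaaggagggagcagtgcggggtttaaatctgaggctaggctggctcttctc

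The CHR letters were found in genes of every response. All 8 genes with a window that rose after knock-down held them, as did 10 of 13 that fell and 18 of 26 that did not pass. Windows with both the CHR and the CCAAT letters were less even: 7 of the 8, 5 of the 13 and 16 of the 26. The difference between these shares was not tested. The median log2 fold change after knock-down was -0.09 over the 36 genes with CHR letters in their window and -0.07 over the 11 without them. In the RIP the corresponding medians were 0.94 and 1.32. The 11 whose windows lacked the letters were AURKB, CCNA2, CCNB1, CDC25C, CENPE, CKAP2, KIF20A, KIF2C, MYBL2, NCAPH and PTTG1. Of these, AURKB and CKAP2 have windows inside the gene span. Only 1 annotated start per gene was searched, so CHR letters near another start would not be seen. Forms of the CHR other than TTTGAA and TTCGAA would not be seen either, so a window without these letters may still hold the element.

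**Figure D1:**
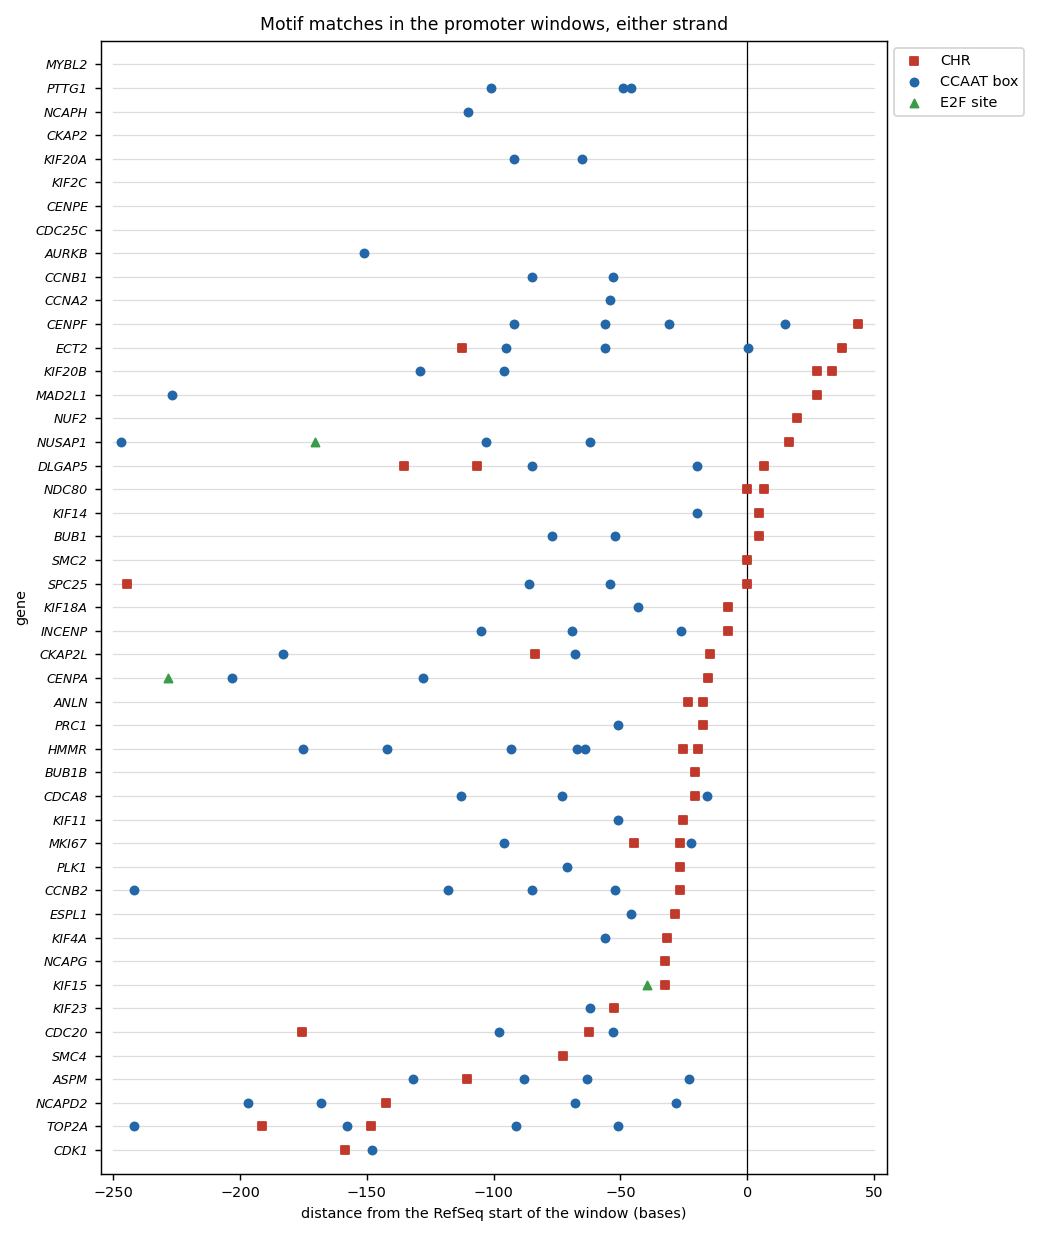
Position of each motif match in bases from the RefSeq start of the window (x axis, the line at 0 is the start) for the 47 genes with a RefSeq window, either strand. Squares are CHR, circles CCAAT box and triangles E2F site. In 25 genes a CHR match lies wholly within 60 bases before to 20 bases after the start, and the 11 genes at the top hold none.

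Total estimated counts ran from 25819144 to 36635268 per library. BCLAF1 stood at 325, 328 and 312 CPM (counts relative to the library total, scaled by the TMM method) in shCONTROL replicates 1 to 3 and at 115, 125 and 99.96 CPM in shBCLAF1. Its mean in shBCLAF1 was 35.2% of that in shCONTROL, with no overlap (edgeR quasi-likelihood adjusted p = 0.000206). In the RIP libraries BCLAF1 RNA stood at 1147, 1059 and 1034 CPM. All 8 myeloid markers examined were detected, whereas CD3E, MS4A1, HBB, EPCAM, COL1A1 and COL1A2 were at 0 in every library. The 8 myeloid markers summed to 2105 to 2211 CPM in shCONTROL and to 3904 to 4332 CPM in shBCLAF1, where LYZ (lysozyme) rose by 1.86 on the log2 scale (adjusted p = 0.000119). The 8 markers went both ways: LYZ, CD33 (0.34) and SPI1 (0.37) rose, FLT3 fell by 0.18, 4 did not pass, and the median log2 fold change was 0.01. The 4 T and B cell markers summed to 13.7 to 14.7 CPM in shCONTROL and 10.1 to 12.99 CPM in shBCLAF1, and the 4 epithelial and fibroblast markers, of which only KRT18 was detected, to 0.890 to 1.13 and 2.07 to 2.25 CPM. The part of these shifts in the results on the mitotic genes was not tested.

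After BCLAF1 knock-down single mitotic genes moved both ways, and the share of the RNA that the 55 took together overlapped between the groups. They took 0.743% to 0.757% of the counts of the shCONTROL libraries and 0.724% to 0.761% of those of shBCLAF1. With edgeR's quasi-likelihood test and Benjamini-Hochberg adjustment over all genes, 10 of the 55 rose, 14 fell and 31 did not pass. That is 43.6% called, against 32.3% of the 16961 genes tested (15.5% higher, 16.9% lower). The groups did not overlap for 34 genes, 13 above and 21 below, against 49.3% of all genes tested. Changes were small: log2 fold changes ran from -0.55 to 0.54, with a median of -0.06 against 0.02 over all genes tested, and none reached 1 in size. In bulk RNA, fewer cells in G2 or mitosis and less RNA per cell cannot be told apart. With counts scaled to the library totals in place of TMM, 15 rose and 12 fell. In a fit of all 9 libraries together, 4 rose and 8 fell. Without shBCLAF1 replicate 1, and likewise without shBCLAF1 replicate 2, the number that rose was 5.

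**Figure D2:**
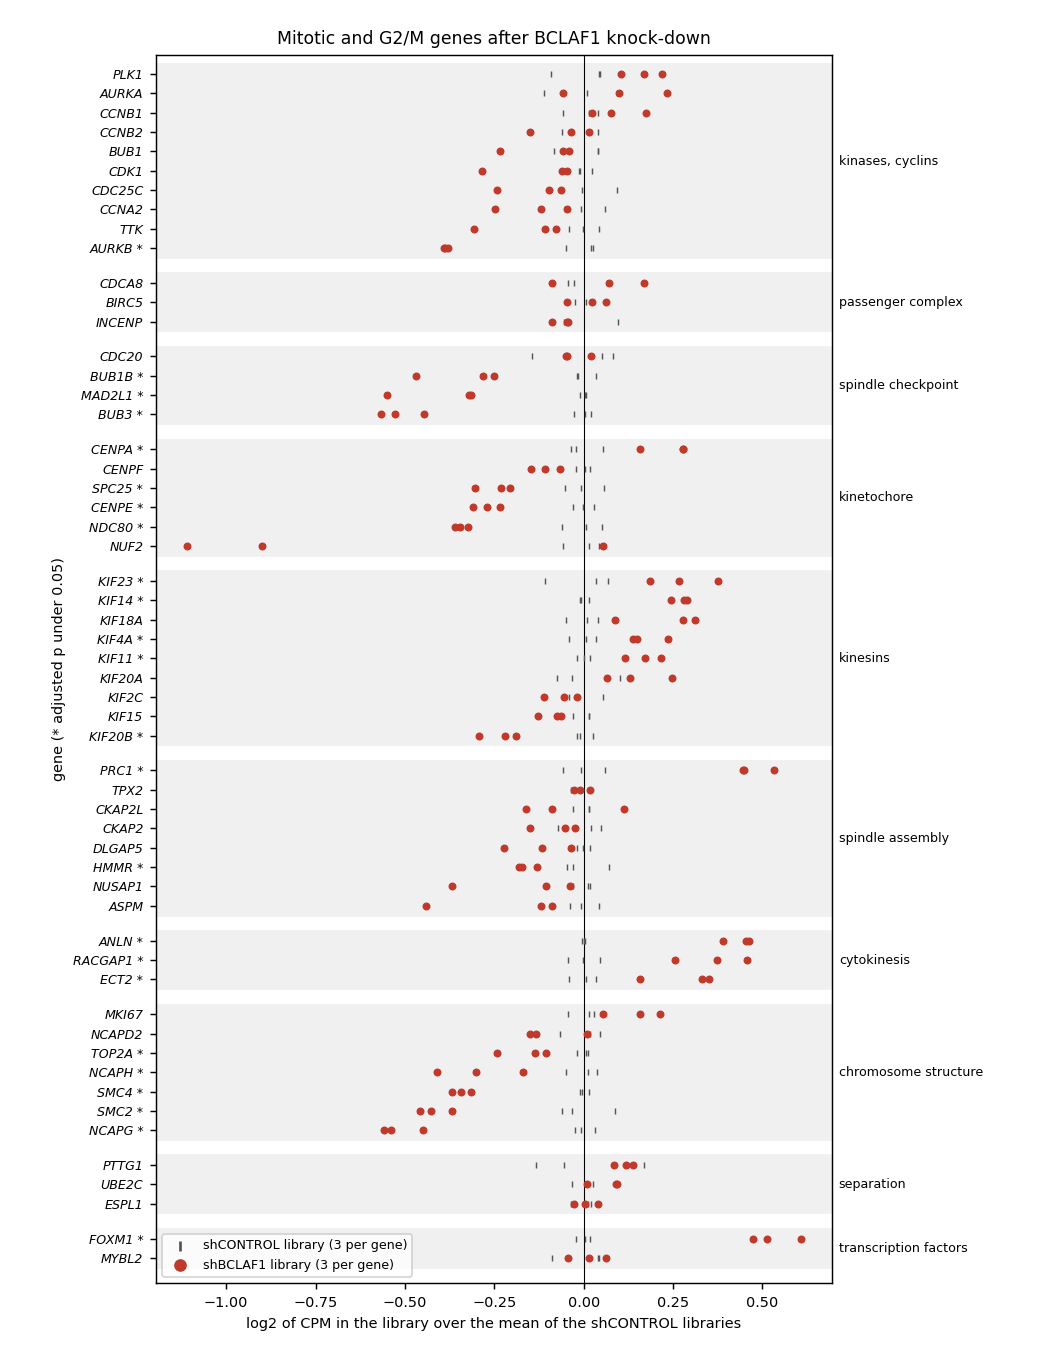
Log2 of the CPM of each library over the mean of the 3 shCONTROL libraries (x axis) for the 55 genes, by function group. Ticks are shCONTROL libraries, circles shBCLAF1 libraries, and a star marks an adjusted p under 0.05. The 3 cytokinesis genes lie to the right, most checkpoint and condensin genes to the left, and NUF2 has 2 libraries far from the third.

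The factors that switch the programme on did not move together. FOXM1 (ENSG00000111206, chr12:2857680-2877174), the forkhead factor of the G2 programme, stood at 93.3, 94.2 and 91.7 CPM in shCONTROL and at 142, 133 and 129 CPM in shBCLAF1. Every shBCLAF1 library lay above every shCONTROL library, and FOXM1 rose by 0.54 on the log2 scale (SE 0.05, adjusted p = 0.000578), the highest of the 55. MYBL2, which works with the MuvB complex on the same promoters, stood at 237, 217 and 238 CPM in shCONTROL and at 233, 224 and 241 CPM in shBCLAF1. The groups overlapped (log2 fold change 0.02, SE 0.05, adjusted p = 0.849).

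Among the 10 genes grouped as mitotic kinases and cyclins, with the phosphatase CDC25C, AURKB fell and the other 9 did not pass. AURKB, the kinase of the chromosomal passenger complex, stood at 49.2, 46.8 and 49.4 CPM in shCONTROL and at 37.2, 37.0 and 37.1 CPM in shBCLAF1. The groups did not overlap, and AURKB fell by 0.38 on the log2 scale (SE 0.04, adjusted p = 0.00149, but 0.0943 in the fit of all 9 libraries). Its partners INCENP, BIRC5 and CDCA8 had log2 fold changes of -0.06, 0.02 and 0.06 with overlapping groups, and none passed. AURKA, the Aurora kinase of the spindle poles, stood at 74.3, 64.4 and 70.0 CPM in shCONTROL and at 81.8, 74.5 and 66.8 CPM in shBCLAF1. Its groups overlapped (log2 fold change 0.10, SE 0.09, adjusted p = 0.457).

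CDK1, the central mitotic kinase, stood at 94.3, 92.1 and 92.2 CPM in shCONTROL and at 89.1, 90.0 and 76.3 CPM in shBCLAF1. All 3 shBCLAF1 libraries lay below, with replicate 3 the lowest, but the change did not pass (log2 fold change -0.12, SE 0.07, adjusted p = 0.250). CCNB1, the main mitotic cyclin, stood at 116, 108 and 114 CPM in shCONTROL and at 127, 119 and 115 CPM in shBCLAF1. Those groups overlapped (log2 fold change 0.10, SE 0.05, adjusted p = 0.215), as did those of CCNB2 (59.0, 62.3 and 63.1 against 62.1, 60.0 and 55.4 CPM, log2 fold change -0.05, SE 0.06, adjusted p = 0.566). CCNA2, the cyclin of S phase and G2, stood at 172, 159 and 164 CPM in shCONTROL and at 160, 152 and 139 CPM in shBCLAF1, again overlapping (log2 fold change -0.13, SE 0.06, adjusted p = 0.164). CDC25C, the phosphatase that activates CDK1, overlapped as well (-0.13, SE 0.09, adjusted p = 0.326).

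PLK1, the Polo-like kinase, stood at 150, 136 and 150 CPM in shCONTROL and at 169, 156 and 163 CPM in shBCLAF1. All 3 knock-down libraries lay above, but PLK1 missed the threshold (log2 fold change 0.17, SE 0.05, adjusted p = 0.0563) and passed it under DESeq2 (adjusted p = 0.0239). BUB1, a kinetochore kinase, stood at 122, 112 and 122 CPM in shCONTROL and at 115, 114 and 101 CPM in shBCLAF1, with overlap (log2 fold change -0.10, SE 0.07, adjusted p = 0.291). TTK, the kinase that starts the checkpoint signal, stood at 99.8, 96.8 and 94.2 CPM in shCONTROL and at 91.8, 90.0 and 78.3 CPM in shBCLAF1. It did not overlap and did not pass (log2 fold change -0.16, SE 0.07, adjusted p = 0.141).

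Of the 4 members grouped here as spindle checkpoint, 3 fell. The kinetochore kinase BUB1 and TTK, which starts the checkpoint signal, were counted above with the kinases and did not pass. BUB3 (chr10:123154402-123170467), the adaptor that seats checkpoint proteins on the kinetochore, stood at 222, 215 and 220 CPM in shCONTROL and at 161, 152 and 148 CPM in shBCLAF1. The groups were well apart, and BUB3 fell by 0.51 on the log2 scale (SE 0.04, adjusted p = 0.000525). MAD2L1 (chr4:120055623-120066848), which as MAD2 inhibits the anaphase-promoting complex, stood at 91.0, 91.0 and 89.9 CPM in shCONTROL and at 72.9, 72.6 and 61.9 CPM in shBCLAF1. It too fell without overlap, by 0.39 (SE 0.07, adjusted p = 0.00844). BUB1B, the checkpoint protein BUBR1, fell by 0.33 (SE 0.07, adjusted p = 0.0117, but 0.0669 in the fit of all 9 libraries). CDC20, the activator that the checkpoint blocks, stood at 84.9, 72.6 and 83.1 CPM in shCONTROL and at 81.3, 77.4 and 77.6 CPM in shBCLAF1. Its groups overlapped (log2 fold change -0.02, SE 0.07, adjusted p = 0.841).

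At the kinetochore, 3 of 6 genes fell (NDC80, CENPE, SPC25), CENPA rose and CENPF and NUF2 did not pass. CENPF, a large outer kinetochore protein, lay below its controls in every library at -0.10 (SE 0.04, adjusted p = 0.0755, but 0.00753 under DESeq2). NDC80, the microtubule anchor, fell by 0.34 (SE 0.05, adjusted p = 0.00271), and CENPE, a kinetochore motor, by 0.27 (SE 0.04, adjusted p = 0.00327). SPC25, in the same complex as NDC80, stood at 24.5, 22.7 and 23.4 CPM in shCONTROL and at 20.4, 20.04 and 19.1 CPM in shBCLAF1. It fell by 0.24 (SE 0.06, adjusted p = 0.0280), a call lost without shCONTROL replicate 1 or 3 or shBCLAF1 replicate 2 or 3 (adjusted p 0.0542 to 0.0977). CENPA, the centromeric histone, rose by 0.24 (SE 0.06, adjusted p = 0.0274), a call lost without shCONTROL replicate 2 or 3 or shBCLAF1 replicate 1 or 2 (adjusted p 0.0653 to 0.0927).

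NUF2 (chr1:163321954-163355759), the partner of NDC80, split the knock-down libraries. It stood at 51.8, 49.3 and 52.8 CPM in shCONTROL and at 23.7, 53.2 and 27.5 CPM in shBCLAF1, from 903, 2013 and 1007 estimated counts. Replicates 1 and 3 of shBCLAF1 lay far below every control library and replicate 2 just above them. The change was -0.55 on the log2 scale (SE 0.30, adjusted p = 0.222), the lowest of the 55, and without shBCLAF1 replicate 2 it was -0.9998 (adjusted p = 0.00310). The table holds 1 estimated count per gene and not how reads were assigned, so whether these values are levels of NUF2 RNA or a different assignment of its reads in some libraries was not tested.

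Of 9 kinesins, the motors that slide and shorten spindle microtubules, 4 rose and 1 fell. KIF23, the motor of the central spindle, stood at 61.9, 56.1 and 63.4 CPM in shCONTROL and at 72.7, 78.5 and 68.8 CPM in shBCLAF1. It rose by 0.28 (SE 0.07, adjusted p = 0.0267) with no overlap. KIF4A, which shapes the central spindle and chromosomes, stood at 49.7, 51.3 and 52.3 CPM in shCONTROL and at 56.6, 56.2 and 60.2 CPM in shBCLAF1. It rose by 0.18 (SE 0.05, adjusted p = 0.0302), also with no overlap. KIF14, a cytokinesis motor, rose by 0.27 (SE 0.03, adjusted p = 0.00182), KIF11, which pushes the spindle poles apart, rose by 0.17 (SE 0.04, adjusted p = 0.0190), and KIF20B fell by 0.23 (SE 0.04, adjusted p = 0.00735). The number of kinesins that rose was 1 without shBCLAF1 replicate 1, 1 without shBCLAF1 replicate 2, 2 without shCONTROL replicate 1 and 2 without shCONTROL replicate 2, as KIF23 (adjusted p 0.0585 to 0.0795 in the 4 fits), KIF4A or KIF11 (0.0513 and 0.0643 in the first and second) lost their calls. KIF4A lost its call without any 1 of the 6 libraries (adjusted p 0.0544 to 0.0914). KIF20A, the passenger complex's motor, stood at 63.0, 55.8 and 57.4 CPM in shCONTROL and at 69.8, 64.3 and 61.4 CPM in shBCLAF1, with overlap (log2 fold change 0.15, SE 0.07, adjusted p = 0.148). The other 3 that did not pass were KIF18A, which limits chromosome swaying (0.23, adjusted p = 0.0562), KIF2C, a microtubule depolymerase (-0.06), and KIF15 (-0.08). KIF18A lay above its controls in every library and passed without shBCLAF1 replicate 3 (adjusted p = 0.0117).

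All 3 genes grouped here under cytokinesis rose, and so did PRC1, the bundler of central spindle microtubules. Each gene was counted in 1 function group only, so genes that also act in cytokinesis, such as KIF14, are given elsewhere. ANLN, the anillin scaffold of the cleavage furrow, stood at 115, 115 and 116 CPM in shCONTROL and at 159, 158 and 151 CPM in shBCLAF1. Every knock-down library was higher, and ANLN rose by 0.44 (SE 0.04, adjusted p = 0.000506). RACGAP1, which pairs with KIF23 in the centralspindlin complex, stood at 63.2, 61.4 and 65.3 CPM in shCONTROL and at 86.9, 82.0 and 75.5 CPM in shBCLAF1. ECT2, the exchange factor that turns on RhoA at the furrow, stood at 62.6, 64.7 and 66.1 CPM in shCONTROL and at 82.2, 81.2 and 71.9 CPM in shBCLAF1. Neither overlapped. RACGAP1 rose by 0.37 (SE 0.06, adjusted p = 0.00608, but 0.173 in the fit of all 9 libraries) and ECT2 by 0.29 (SE 0.06, adjusted p = 0.0167). Without shBCLAF1 replicate 1, and without replicate 2, ECT2 lost its call (adjusted p = 0.0558 and 0.0626), which left 2 of the 3 genes higher. PRC1 stood at 35.6, 34.4 and 37.2 CPM in shCONTROL and at 48.7, 51.7 and 48.7 CPM in shBCLAF1. With no overlap, it rose by 0.48 (SE 0.05, adjusted p = 0.00142, but 0.0947 in the fit of all 9 libraries).

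Among the other 7 spindle assembly genes, HMMR fell and 6 did not pass. HMMR, a microtubule-binding protein also known as a hyaluronan receptor, stood at 95.9, 88.4 and 89.4 CPM in shCONTROL and at 83.3, 80.9 and 80.4 CPM in shBCLAF1. It fell by 0.16 (SE 0.04, adjusted p = 0.0388) without overlap, a call lost without any 1 of the 6 libraries (adjusted p 0.0617 to 0.120). TPX2, the activator of AURKA, stood at 193, 186 and 193 CPM in shCONTROL and at 193, 189 and 187 CPM in shBCLAF1, so that the groups overlapped (log2 fold change 0.00 to 2 decimals, SE 0.03, adjusted p = 0.967). NUSAP1, a microtubule stabiliser, stood at 145, 141 and 145 CPM in shCONTROL and at 140, 133 and 111 CPM in shBCLAF1. It did not overlap, but with replicate 3 far below the others it did not pass (log2 fold change -0.16, SE 0.09, adjusted p = 0.226). ASPM, a spindle pole protein, was likewise low in replicate 3 (308, 302 and 242 CPM against 320 to 338 CPM) and did not pass (-0.20, SE 0.10, adjusted p = 0.166). CKAP2, CKAP2L and DLGAP5, which bind and stabilise spindle microtubules, had log2 fold changes of -0.07, -0.04 and -0.12 and did not pass.

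Of the 5 condensin subunits, 4 fell. NCAPG (chr4:17810979-17844865), a subunit of condensin I, stood at 121, 125 and 122 CPM in shCONTROL and at 89.8, 83.2 and 84.4 CPM in shBCLAF1. The gap between the groups was wide, and NCAPG fell by 0.51 (SE 0.04, adjusted p = 0.000556), the lowest of the members that passed. SMC2, the ATPase common to both condensins, stood at 176, 162 and 159 CPM in shCONTROL and at 123, 128 and 121 CPM in shBCLAF1. It fell by 0.41 (SE 0.05, adjusted p = 0.00205) with no overlap. Its partner SMC4 fell by 0.34 (SE 0.03, adjusted p = 0.000762), and NCAPH, the closing subunit, by 0.29 (SE 0.07, adjusted p = 0.0217). NCAPH lost its call without shCONTROL replicate 1 or 3 or shBCLAF1 replicate 2 (adjusted p 0.0641 to 0.0708). NCAPD2, the remaining subunit, was at -0.09 on the log2 scale (SE 0.06, adjusted p = 0.305).

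Of the other chromosome proteins, TOP2A, the topoisomerase that untangles sister DNA, stood at 444, 441 and 434 CPM in shCONTROL and at 409, 400 and 371 CPM in shBCLAF1. It fell by 0.16 (SE 0.05, adjusted p = 0.0427) without overlap. TOP2A lost its call without any 1 of the 3 shCONTROL libraries or shBCLAF1 replicate 2 (adjusted p 0.0839 to 0.119). MKI67, the coat of mitotic chromosomes used as a proliferation marker, stood at 686, 659 and 693 CPM in shCONTROL and at 788, 758 and 706 CPM in shBCLAF1. All 3 knock-down libraries were above the controls, but MKI67 did not pass (log2 fold change 0.15, SE 0.05, adjusted p = 0.0726); without shBCLAF1 replicate 3 it did (adjusted p = 0.0177). The separation genes PTTG1 (securin), ESPL1 (separase) and UBE2C (the ubiquitin-conjugating enzyme of the anaphase-promoting complex) had log2 fold changes of 0.12, 0.01 and 0.07 with overlapping groups.

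One library recurred among the low values. In 43 of the 55 genes the lowest of the shBCLAF1 libraries was replicate 3, and in 38 the highest was replicate 1. The same order was not counted over all genes, so it cannot be called particular to the mitotic genes. The mean log2(CPM + 1) over the 55 genes was 6.60 to 6.65 in shCONTROL and 6.62, 6.60 and 6.51 in shBCLAF1 replicates 1 to 3. Of the 24 calls, 11 held in each of 12 alternative fits (FOXM1, ANLN and KIF14 higher; BUB3, MAD2L1, NDC80, CENPE, KIF20B, SMC2, SMC4 and NCAPG lower). A further 4 (PRC1, RACGAP1, AURKB, BUB1B) were lost only in the fit of all 9 libraries, and 9 were lost on leaving out a library as given above or under another setting.

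**Figure D3:**
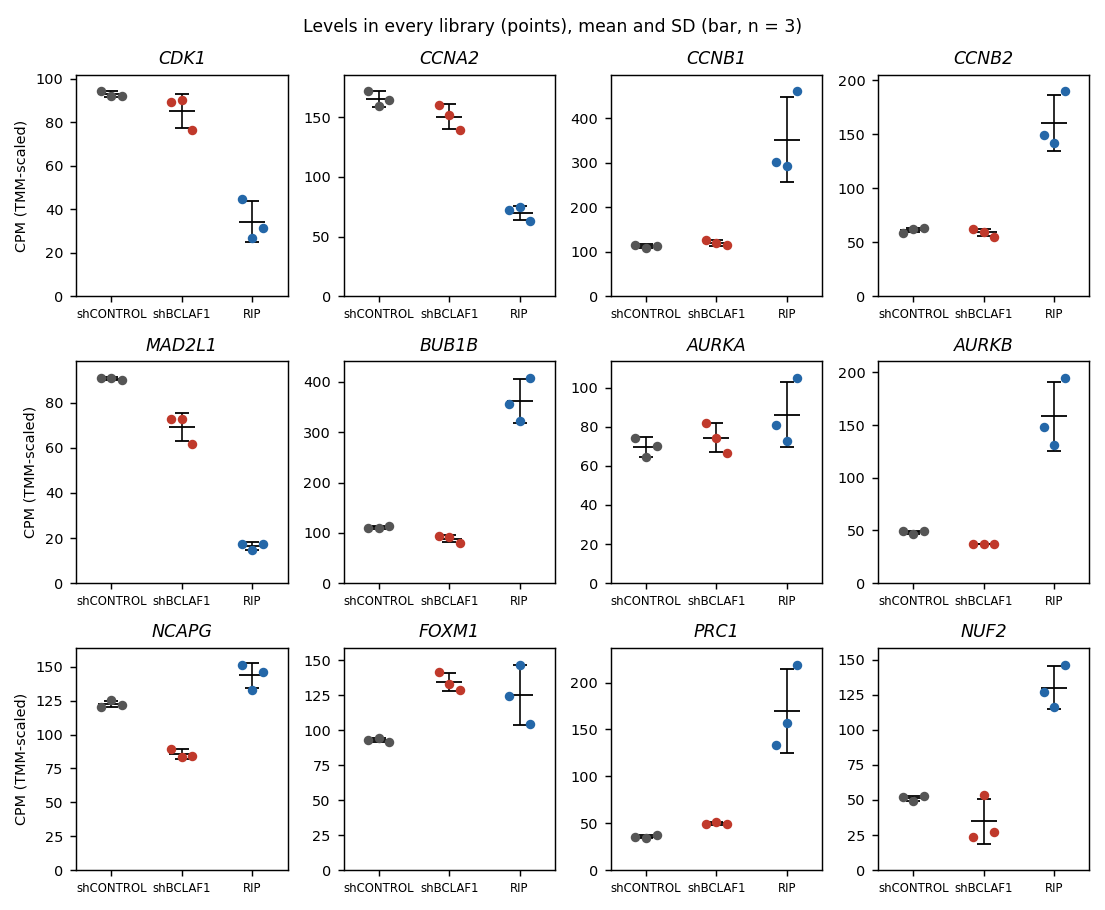
CPM (y axis, from 0) of 12 of the genes in every library (points), with mean and SD (bar, n = 3) for shCONTROL, shBCLAF1 and RIP. The knock-down libraries of NCAPG and MAD2L1 lie below and those of FOXM1 and PRC1 above the controls, while in the RIP CDK1, CCNA2 and MAD2L1 are low and CCNB1, CCNB2, BUB1B and AURKB are high.

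In the RNA recovered with BCLAF1, most of these genes stood higher than in total RNA of the separate shCONTROL samples. They took 1.30% to 1.45% of the RIP counts. With edgeR's quasi-likelihood test against shCONTROL, 39 of the 55 were higher, 7 lower and 9 did not pass, so 83.6% were called against 49.2% of the 16727 genes tested (24.6% higher, 24.7% lower). Counting only those with a change of 1 or more on the log2 scale, 25 were enriched and 3 depleted, against 11.1% and 13.6% of genes tested. The median log2 fold change was 0.91, against -0.05 over all genes tested, and the lower and upper quartiles were 0.20 and 1.44. The groups did not overlap in 48 genes, 41 above and 7 below, against 67.0% of all genes tested. Scaled to library totals, the median of the 55 was 0.80 and that of all genes -0.17. The RIP and RNA-seq libraries were prepared from different cell numbers and one had a precipitation step, so capture and other differences between the kinds of library cannot be told apart. The RIP comparison shares its shCONTROL libraries with the knock-down comparison.

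**Figure D4:**
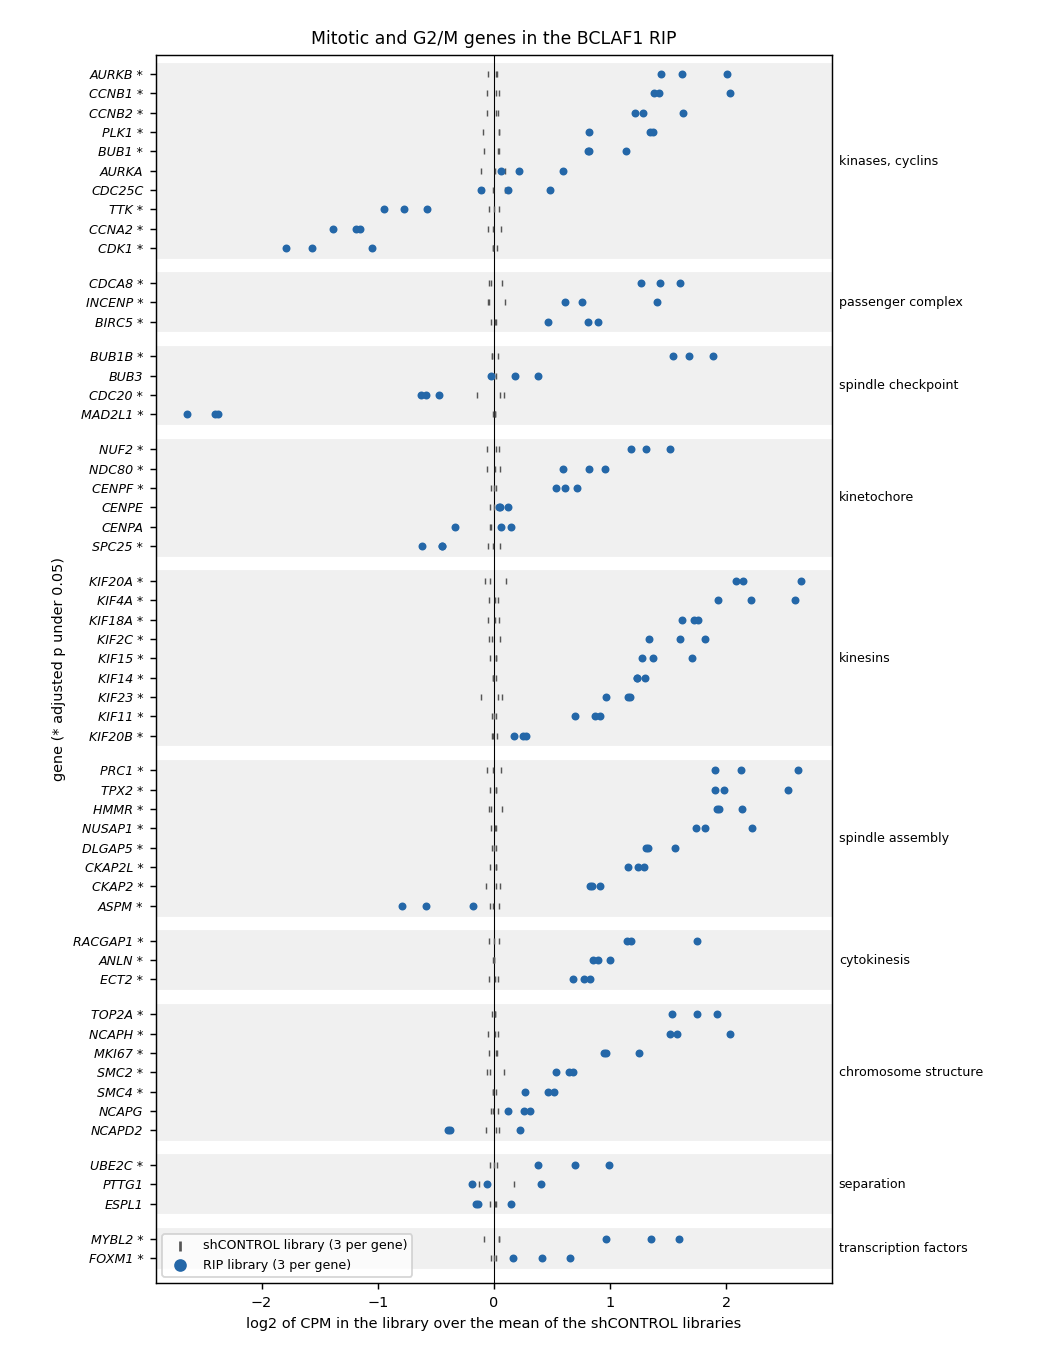
Log2 of the CPM of each library over the mean of the 3 shCONTROL libraries (x axis) for the 55 genes, by function group. Ticks are shCONTROL libraries, circles RIP libraries, and a star marks an adjusted p under 0.05. All kinesins lie to the right, while MAD2L1, CDK1, CCNA2 and TTK lie to the left.

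All 9 kinesins were higher in the RIP, 7 of them enriched. KIF20A (chr5:138179112-138187723) stood at 259, 250 and 368 CPM in the RIP, above its 55.8 to 63.0 CPM in shCONTROL. This was a 4.94-fold difference (log2 fold change 2.31, SE 0.17, adjusted p = 0.000335), the highest of the 55. KIF4A stood at 194, 236 and 308 CPM in the RIP, far above its controls (log2 fold change 2.26, SE 0.18, adjusted p = 0.000370). KIF23 stood at 134, 118 and 136 CPM in the RIP, above its controls as well (log2 fold change 1.09, SE 0.09, adjusted p = 0.000474). KIF18A, KIF2C, KIF15, KIF14 and KIF11 were at 1.69, 1.59, 1.46, 1.25 and 0.82 on the log2 scale, and no library of theirs overlapped. The lowest of the family was KIF20B at 0.23 (SE 0.07, adjusted p = 0.0419), and it lost its call without any 1 of the 3 shCONTROL libraries or RIP replicate 1 (adjusted p 0.0663 to 0.154).

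Of the 8 spindle assembly genes, 7 were higher and ASPM was lower. PRC1 stood at 133, 156 and 219 CPM in the RIP, all above its shCONTROL range (log2 fold change 2.24, SE 0.20, adjusted p = 0.000477). TPX2 stood at 712, 753 and 1101 CPM in the RIP, again all above its controls (log2 fold change 2.16, SE 0.19, adjusted p = 0.000480). HMMR stood at 345, 349 and 401 CPM in the RIP and NUSAP1 at 505, 480 and 668 CPM. Both lay wholly above their controls, and their log2 fold changes were 1.99 (SE 0.10, adjusted p = 0.000203) and 1.93 (SE 0.15, adjusted p = 0.000339). DLGAP5, CKAP2L and CKAP2 followed at 1.40, 1.22 and 0.85. ASPM was at -0.51 on the log2 scale (SE 0.16, adjusted p = 0.0443), lost without any 1 of the 3 shCONTROL libraries or RIP replicate 2 or 3 (adjusted p 0.0668 to 0.126).

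The kinases and cyclins divided in the RIP: 5 of 10 were higher, 3 lower and 2 did not pass. CDK1 stood at 44.9, 26.8 and 31.3 CPM in the RIP, all below its controls, and was depleted (log2 fold change -1.44, SE 0.19, adjusted p = 0.00168). CCNA2 stood at 72.3, 74.4 and 63.2 CPM, likewise below (log2 fold change -1.25, SE 0.10, adjusted p = 0.000362). The B-type cyclins lay on the other side. CCNB1 stood at 302, 293 and 462 CPM (log2 fold change 1.63, SE 0.19, adjusted p = 0.00116) and CCNB2 at 149, 142 and 190 CPM (1.38, SE 0.13, adjusted p = 0.000543), all above their controls. The kinases differed as well. AURKB stood at 149, 131 and 195 CPM in the RIP (log2 fold change 1.70, SE 0.15, adjusted p = 0.000537) and PLK1 at 256, 376 and 369 CPM (1.19, SE 0.17, adjusted p = 0.00227), both without overlap. AURKA stood at 80.8, 72.8 and 105 CPM, overlapping its controls (0.30, SE 0.15, adjusted p = 0.148). BUB1 stood at 208, 210 and 261 CPM, above its controls but under the minimum for enrichment (0.92, SE 0.12, adjusted p = 0.00147). TTK stood at 65.0, 50.3 and 56.7 CPM, below its controls (-0.77, SE 0.11, adjusted p = 0.00199). CDC25C did not pass (0.18, SE 0.17, adjusted p = 0.416).

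The spindle checkpoint held the genes that lay farthest apart within 1 group. MAD2L1 stood at 17.5, 14.5 and 17.2 CPM in the RIP, against 89.9 to 91.0 CPM in shCONTROL. All RIP libraries were far below, a 5.56-fold difference (log2 fold change -2.47, SE 0.10, adjusted p = 0.000142) that was the lowest of the 55. BUB1B stood at the other end with 1.70 (SE 0.11, adjusted p = 0.000250). BUB3 stood at 248, 215 and 285 CPM in the RIP, overlapping its controls (0.18, SE 0.12, adjusted p = 0.248), and CDC20 at 53.4, 51.8 and 57.8 CPM, below them (-0.57, SE 0.10, adjusted p = 0.00412). At the kinetochore NUF2 stood at 127, 116 and 147 CPM, above its controls (1.33, SE 0.10, adjusted p = 0.000358). SPC25 stood at 17.3, 15.3 and 17.3 CPM, below its controls (-0.51, SE 0.10, adjusted p = 0.00656), and CENPA overlapped its own (-0.04, SE 0.14, adjusted p = 0.836). NDC80 at 0.79 and CENPF at 0.62 were higher under the minimum, and CENPE at 0.06 did not pass.

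The cytokinesis and passenger complex genes, 3 each, were all higher in the RIP. RACGAP1 stood at 140, 143 and 212 CPM (log2 fold change 1.38, SE 0.18, adjusted p = 0.00151), ANLN at 215, 209 and 230 CPM (0.91, SE 0.08, adjusted p = 0.000415) and ECT2 at 114, 103 and 111 CPM (0.76, SE 0.07, adjusted p = 0.000628). None overlapped its controls. CDCA8 (borealin) was higher by 1.43 on the log2 scale (SE 0.12, adjusted p = 0.000386), BIRC5 (survivin) by 0.73 (SE 0.13, adjusted p = 0.00495) and INCENP by 0.96 (SE 0.23, adjusted p = 0.0141). INCENP passed with all 3 shCONTROL libraries, but not when replicate 1 (adjusted p = 0.0556) or replicate 2 (0.0561) of that group was left out.

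Chromosome proteins were higher in 5 of 7 genes. TOP2A stood at 1271, 1474 and 1663 CPM in the RIP (log2 fold change 1.73, SE 0.13, adjusted p = 0.000339) and MKI67 at 1311, 1613 and 1328 CPM (1.06, SE 0.13, adjusted p = 0.00128), both far above their controls. The condensin subunits were unequal. NCAPH was higher by 1.72 on the log2 scale (SE 0.16, adjusted p = 0.000522), whereas SMC2 stood at 258, 240 and 265 CPM, above its controls but under the minimum (0.61, SE 0.09, adjusted p = 0.00211). NCAPG stood at 152, 133 and 146 CPM, above its controls without passing (0.22, SE 0.08, adjusted p = 0.0550), and without RIP replicate 2 it passed (adjusted p = 0.0142). NCAPD2 did not pass (-0.16, SE 0.19, adjusted p = 0.519), except without RIP replicate 2 (-0.40, adjusted p = 0.00817). SMC4 at 0.41 (SE 0.10, adjusted p = 0.0164) lost its call without any 1 of the shCONTROL libraries (adjusted p 0.0663 to 0.0752). Of the factors, MYBL2 stood at 449, 695 and 589 CPM, above its controls (1.32, SE 0.18, adjusted p = 0.00189). FOXM1 stood at 124, 147 and 104 CPM, also above but by less (0.42, SE 0.14, adjusted p = 0.0463), and it lost its call without any 1 of the shCONTROL libraries, RIP replicate 1 or RIP replicate 2 (adjusted p 0.0544 to 0.132).

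Of the separation genes UBE2C was higher in the RIP at 0.70 on the log2 scale (SE 0.15, adjusted p = 0.0110), and PTTG1 at 0.07 and ESPL1 at -0.05 did not pass. RIP replicate 3 was the highest RIP library in 29 of the 55 genes, a count not made over all genes. Across the 55 genes the RIP log2 fold change and the length of the gene in RefSeq had a Spearman rho of 0.20, and across the 13873 genes with both values it was 0.20 as well. These are descriptions across genes, which share the same libraries.

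Side by side, the 10 genes that rose after knock-down comprised 5 enriched in the RIP, 4 higher under the minimum and 1 that did not pass (CENPA). The 14 that fell comprised 5 enriched, 4 higher under the minimum, 1 lower under the minimum (SPC25), 1 depleted (MAD2L1) and 3 that did not pass. The 31 that did not pass after knock-down comprised 15 enriched, 6 higher and 3 lower under the minimum, 2 depleted (CDK1, CCNA2) and 5 that did not pass.

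Other genes of the same processes were counted from lists drawn up with these results known, to be read against the 15.5% of all genes tested that rose and the 16.9% that fell (32.3% in all). Of 29 other kinetochore and centromere genes, 2 rose and 6 fell after knock-down (27.6% called, median log2 fold change -0.03), with SKA3, which helps hold microtubule ends, at -0.58 (adjusted p = 0.000316) and KNTC1 at -0.33 (adjusted p = 0.00429). Of 17 genes of the anaphase-promoting complex, its regulators and its partners, 4 rose and 4 fell (47.1% called, median 0.05). Its subunits CDC23 and ANAPC13 were at -0.73 (adjusted p = 0.000468) and 0.45 (adjusted p = 0.00166). Of 14 other condensin and cohesin genes, 1 rose and 4 fell (35.7% called, median -0.05), with the cohesin subunit SMC3 at -0.41 (adjusted p = 0.000430) and the cohesin release factor WAPL at 0.29 (adjusted p = 0.00206). Of 25 other G2/M genes, 7 rose and 5 fell (48% called, median -0.01), with WEE1, the kinase that restrains CDK1, at -0.49 (adjusted p = 0.000452) and TROAP at 0.52 (adjusted p = 0.00204). The shares called in the kinetochore and the condensin and cohesin lists were close to that of all genes.

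Upstream regulators and genes of the preceding phase were counted in the same way. DREAM represses these promoters in resting cells, and its MuvB core acts on them with MYBL2 and FOXM1 in cycling cells. The list of 12 held genes of these complexes and RB1, a related pocket protein that is not one of their subunits. Of the 12, 4 were called (33.3%, close to the share of all genes). TFDP1 rose (0.40, adjusted p = 0.000905). RBL1 (-0.48, adjusted p = 0.00106), RB1 (-0.59, adjusted p = 0.00263) and E2F5 (-0.62, adjusted p = 0.00936) fell. The other 8 did not pass: LIN9 at -0.44, LIN37 at -0.08, LIN52 at -0.24, LIN54 at 0.24, RBBP4 at 0.26, RBL2 at -0.11, E2F4 at -0.18 and TFDP2 at -0.52 on the log2 scale. Of 5 CDK inhibitors tested, 3 were called. CDKN1A, the inhibitor p21, rose by 0.37 (adjusted p = 0.00290), CDKN2C by 0.32 (adjusted p = 0.000970) and CDKN2D by 0.36 (adjusted p = 0.0155). CDKN1B was at -0.10 and CDKN1C at -0.09 without passing, and CDKN2A and CDKN2B were at 0 counts in every library. Of 30 S-phase genes, 19 fell and 1 rose (66.7% called, median -0.33), with the sliding clamp PCNA at -0.97 (adjusted p = 0.000200) and the replicative helicase subunit MCM6 at -0.82 (adjusted p = 0.000185), while the 55 mitotic genes had a median of -0.06.

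In the RIP the medians of these lists lay below the 0.91 of the 55 genes. They were 0.26 for the other kinetochore genes, 0.26 for the anaphase-promoting complex, 0.13 for the other condensin and cohesin genes, 0.22 for the other G2/M genes, 0.11 for the list of DREAM and MuvB genes with RB1, -0.44 for the CDK inhibitors and -0.56 for the S-phase genes. Enriched genes numbered 1 of 29, 3 of 17, 2 of 14, 5 of 25, 1 of 12, 0 of 5 and 1 of 30 in that order, against 25 of 55 mitotic genes and 11.1% of all genes tested. The difference between the lists was not tested.

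**Figure D5:**
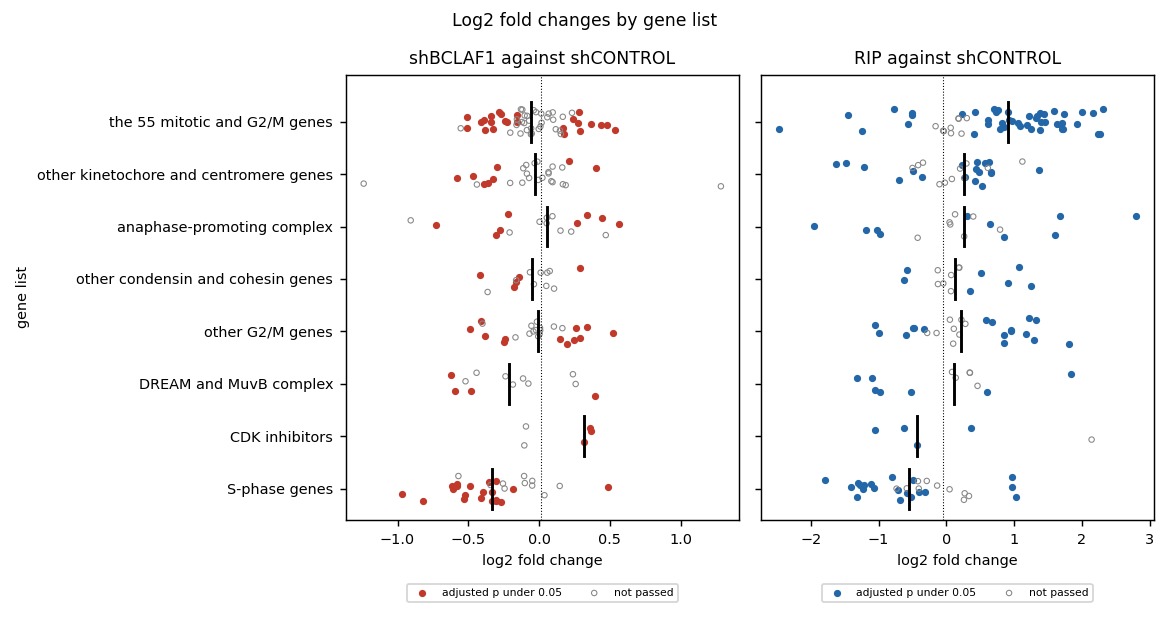
Log2 fold change of each gene (x axis) after knock-down (left) and in the RIP (right) for the 55 genes and 7 related lists. Filled points passed an adjusted p of 0.05, black bars are list medians, and the dotted line is the median of all genes tested. After knock-down the 55 genes lie on both sides of 0 and the S-phase genes mostly to the left, and in the RIP the 55 genes have the highest median, 0.91.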

How the data were processed

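MOLM-13 RNA-seq (shCONTROL, shBCLAF1) and BCLAF1 RIP libraries were read from 1 deposited table of gene-level estimated counts, which are whole numbers. Per the submitters' processing notes, STAR 2.7.11b, StringTie 2.2.3 and hg38 were used; roles, annotation, counting options and use of strand are not given in the sources used here. Per the labels' protocols, a stranded ribosomal-depletion kit and paired-end sequencing were used, and all samples carry 1 batch label. A row naming no gene (2.18% to 3.75% of counts in 8 libraries, missing in RIP replicate 1) was left out.

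The 55 genes and all lists were chosen with earlier results of these data known. Genes were tested with edgeR 4.0.16 in R 4.3.3 (filterByExpr, TMM, quasi-likelihood F-test, prior count 0.125, Benjamini-Hochberg adjustment over all genes tested, threshold 0.05), 6 libraries per fit. All 55 passed the filter in both fits. RIP enrichment or depletion also needed a change of 1 or more on the log2 scale. SE was derived from the coefficient and its F statistic. Levels are CPM with TMM over all 9 libraries. With 3 libraries a group, an exact two-sided permutation test cannot go below p = 0.1. The scripts were tested on simulated data with changes of 1 or more on the log2 scale. No member changed that much after knock-down, so the recovery of smaller changes was not tested. Values in every library are given for 12 genes fixed by function (CDK1, CCNB1, CCNB2, PLK1, AURKA, AURKB, BUB1, CDC20, TOP2A, MKI67, FOXM1, MYBL2) and the 6 highest and 6 lowest in each comparison; from each related list, the 2 genes with the smallest adjusted p after knock-down, and all tested DREAM genes and CDK inhibitors, are named. The remaining members are given by fold change. Alternatives were DESeq2 1.42.0, other scalings, no filter, a fit of all 9 libraries, a replicate block, leaving out each library, and other minimum changes. Promoter sequences and gene positions are from RefSeq (GRCh38.p14), matched by symbol. Without transcript lengths, levels were not compared between genes.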

Additional observations from a re-analysis of the deposited data

How the results depend on the processing

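The number of mitotic genes that rose after knock-down (10) was 4 and the number that fell (14) was 8 with all 9 libraries in 1 fit. Leaving out 1 library at a time gave 5 to 11 higher and 10 to 13 lower. A minimum log2 fold change of 0.5 left 1 higher and 2 lower, and a minimum of 1 left 0 and 0. DESeq2 gave 13 higher and 15 lower. In the RIP, dropping the minimum change gave 39 higher and 7 lower in place of 25 and 3, and testing against a change of 1 gave 20 and 2. The RIP median was 0.80 under library totals. CHR matches before the start alone were found in 57.4% of windows. In the 44 windows at the outer end of the gene span, an alternative chosen after seeing the data, they were found in 79.5%. Same-numbered shCONTROL and shBCLAF1 libraries deviated together with r of 0.02, 0.07 and 0.04, so the numbers were not taken as pairs. The fit with a replicate block gave 8 higher and 12 lower, and 25 enriched and 3 depleted in the RIP. Each knock-down library correlated best with its own number, as a hint from the data only. Changes near 0 took the other sign: CDC20 was at 0.029 under library totals and ran from -0.082 to 0.033 without 1 library. TPX2 was at 0.049 under library totals and ran from -0.015 to 0.018, and MYBL2 ran from -0.019 to 0.049. Over the alternatives of the genes given by library, 302 changes after knock-down kept direction and call, 40 lost the call, 9 gained it and 9 took the other sign, and in the RIP 375 kept both, 9 lost the call and 6 gained it. The cause of each difference was not tested, except that fits without a library hold fewer samples.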

Other observations

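A split like that of NUF2 was looked for after the values were seen, as a level at least 2 times higher in 1 library than in another of the same RNA-seq group, with the highest at 5 CPM or more. NUF2 was the 1 case among the 55 genes, and 7 of 134 related genes met the same criterion. KNL1, the scaffold of the outer kinetochore, stood at 22.5, 191 and 171 CPM in shBCLAF1 replicates 1 to 3. DSN1, of the MIS12 complex, stood there at 22.7, 6.13 and 23.2 CPM, ANAPC4 at 16.5, 36.8 and 19.0 CPM and TFDP2 at 19.5, 8.86 and 21.7 CPM. CDC16, a subunit of the anaphase-promoting complex, stood at 105, 40.7 and 109 CPM in shCONTROL. CENPI, of the inner kinetochore, stood at 7.17, 22.4 and 10.3 CPM in shCONTROL and at 0.894, 14.7 and 1.23 CPM in shBCLAF1. RRM1, a subunit of ribonucleotide reductase, stood at 0.850, 13.95 and 105 CPM in shCONTROL and at 0.947, 91.9 and 1.15 CPM in shBCLAF1. None of the 7 passed the edgeR test after knock-down (adjusted p 0.100 to 0.918). Whether these values are levels of RNA or a different assignment of reads to genes in some libraries was not tested, since the table does not show the assignment.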
